A study of Mus musculus with 18 samples.

Results

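The major histocompatibility complex (MHC) class II genes Cd74, H2-Aa, H2-Ab1, H2-Eb1, H2-DMa, H2-DMb1 and Ciita are described here in CD8+ T cells stimulated once or repeatedly with their peptide. These 7 genes, of 45706 in the deposited tables, were taken by symbol and matched to their Ensembl identifiers. They were chosen by a difference seen in the same libraries, since Cd74 and H2-Ab1 had stood higher in repeat than in single peptide stimulated cells. The levels of the 7 genes in repeat against single peptide stimulated cells are therefore a description without a test. The effects of ibrutinib did not enter the choice and were tested. The tests share libraries with that choice, however, and high untreated values in repeat peptide stimulated cells could favor a fall of Cd74 and H2-Ab1. RNA-seq was performed on 18 libraries of splenic CD8+ T cells of OT-I mice, purified by negative selection. The OT-I T cell receptor is a transgene that recognizes an ovalbumin peptide held by the class I molecule H-2Kb, so all cells of a culture meet the same antigen.

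Single peptide stimulated cells met the peptide during the first 2 days, and repeat peptide stimulated cells were stimulated throughout and kept with peptide. From day 5 to day 8 all cultures received 1 µM ibrutinib, a covalent inhibitor of BTK and some other kinases, or its solvent DMSO. IL-15 and IL-7 were present in all cultures, which are called repeat and single cultures from here on. The groups comprised single cultures with DMSO (n = 5) and with ibrutinib (n = 4), and repeat cultures with DMSO (n = 4) and with ibrutinib (n = 5). As strain, each of the 18 libraries carries OT-1 mice WT. Their genotype entry was taken as the name of the experiment, here lettered A to F, and in experiments B to E it contains the words btk KO. The paper also put btk deficient OT-I cells through this culture protocol, but its RNA-seq methods name none. That entry was therefore read as the name of an experiment, which the labels do not settle. Experiments A to D gave a library of each group, E gave only a repeat culture with ibrutinib and F only a single culture with DMSO. P-values measure the spread between these cultures.

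MHC class II molecules present peptides to CD4+ T cells and are made mainly by B cells, dendritic cells and macrophages. H2-Aa and H2-Ab1 encode the alpha and beta chains of I-A, and H2-Eb1 encodes the beta chain of I-E. The invariant chain, encoded by Cd74, guides new class II dimers to endosomes, where the H2-DM dimer, encoded by H2-DMa and H2-DMb1, exchanges the remnant of the invariant chain for peptide. H2-O, encoded by H2-Oa and H2-Ob, inhibits H2-DM. Ciita encodes the coactivator that switches on class II genes by joining a complex of RFX, NF-Y and CREB proteins on their promoters. Activated mouse T cells are generally regarded as not transcribing Ciita, unlike activated human T cells, and mice of the H2-b haplotype lack a working I-E alpha chain.

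In GRCm38, H2-Aa (minus strand), H2-Ab1, H2-Eb1, H2-DMa and H2-DMb1 (plus strand) lie in the MHC on chromosome 17, and Ciita lies on the plus strand of chromosome 16 from 10480059 to 10528418. RefSeq promoter sequences (GRCm38.p6, 250 bases before the start site) were at hand for H2-Aa, H2-Eb1, H2-DMa and H2-DMb1. Those of H2-Aa and H2-Eb1 are shown because the X and Y boxes, on which the RFX, CREB and NF-Y complex sits, are a feature that class II promoters share and that the choice of genes did not use. The letters searched were CTNGNAAC, where N is any base, for part of the X box, and ATTGG for the core of the Y box. These letters and the spacing were set after these promoters had been read, and the 2 motifs do not overlap. Capitals mark the motifs in stretches that lie wholly before the start site.
H2-Aa, chr17:34287842-34287937, minus strand: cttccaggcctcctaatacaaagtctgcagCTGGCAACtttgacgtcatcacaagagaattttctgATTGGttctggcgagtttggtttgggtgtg
H2-Eb1, chr17:34305743-34305837, plus strand: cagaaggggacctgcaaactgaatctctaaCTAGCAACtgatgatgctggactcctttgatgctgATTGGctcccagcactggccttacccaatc
The motifs start 36 bases apart in H2-Aa and 35 bases apart in H2-Eb1. Of the 4 members with an entry, 3 held the pair in this order with starts 30 to 40 bases apart, namely H2-Aa, H2-Eb1 and H2-DMb1, and neither of the promoters listed for H2-DMa held CTNGNAAC. Of 32851 RefSeq mouse promoters, 10.9% held CTNGNAAC and 33.8% held ATTGG on either strand, and 0.128% held the pair in this order and spacing. A match is a description of the letters and does not show that a factor was bound.

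Total expected counts (the authors' estimated reads per gene, summed) ranged from 23445922 to 51995372 per library. The label of purified CD8+ T cells was checked against 9 T cell genes. Cd8a, the CD8 alpha chain, had a mean of 438 to 571 TPM, a level corrected for transcript length and depth, in the 4 groups, and Cd4 had at most 2 counts in any library. Of the 8 tested genes of that list, Cd8b1, Cd247, Cd8a and Lck were lower and Cd3g and Cd3e higher in repeat than in single cultures with DMSO. By the same limits, set out below, 24.2% of all tested genes were lower and 22.8% higher. The fall of Cd8b1, the CD8 beta chain, was 1.54 on the log2 scale (SE 0.136). With ibrutinib in repeat cultures, Cd247 rose by 0.54 (SE 0.141). In bulk RNA, more cells that express a gene and more RNA per cell cannot be told apart.

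Cd74 and H2-Ab1 were the members with far more reads in repeat cultures. Cd74, on chromosome 18 from 60803848 to 60812652, had 218, 308, 637 and 603 reads in repeat cultures with DMSO (experiments A to D). It had 87, 6, 90, 27 and 14 reads in single cultures with DMSO (experiments A to D and F). Scaled for library size to normalized counts, the means were 419.5 ± 177.4 (SD, n = 4) and 52.7 ± 50.3 (SD, n = 5), and the groups did not overlap. With ibrutinib, Cd74 had 100, 68, 299, 798 and 50 reads in repeat cultures (experiments A to E) and 52, 1, 13 and 2 in single cultures (experiments A to D). The lowest repeat library, of experiment E, stood at 59.5 normalized counts and the highest single library, of experiment A, at 49.3. On this scale the groups came close without overlapping. In TPM the same libraries stood at 1.86 and 2.22, and the groups overlapped. The log2 fold change of repeat over single was 3.00 (SE 0.802) with DMSO and 3.68 (SE 0.92) with ibrutinib.

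Cd74 in single cultures varied by experiment. With DMSO, experiments A and C stood at 99.2 and 114.7 normalized counts and B at 6.49. Within experiments the ratio of repeat to single with DMSO was accordingly 2.56 in A and 4.16 in C, and 46.8 in B and 25.8 in D. Cd74 was higher in repeat cultures in 4 of 4 experiments with either solvent or drug.

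Summed over the 9 single libraries, H2-Ab1 had 73 reads and Cd74 had 292, though the order differed between libraries. Over the 9 repeat libraries the sums were 3677 and 3081. H2-Ab1 had 216, 211, 995 and 625 reads in repeat cultures with DMSO (experiments A to D) and 5, 11, 8, 13 and 5 in single cultures with DMSO (A to D and F). With ibrutinib it had 123, 78, 387, 898 and 144 reads in repeat (A to E) and 8, 6, 15 and 2 in single cultures (A to D). In both conditions the groups were far apart, and the lowest repeat library stood at 88.7 normalized counts against 13.9 in the highest single library. The log2 fold change of repeat over single was 5.63 (SE 0.59) with DMSO, a 49.4-fold difference, and 5.17 (SE 0.636) with ibrutinib. Within experiments, the ratio with DMSO was 44.1, 17.5, 73.1 and 55.4 in A to D. H2-Ab1 passed the filter on low counts only through the repeat libraries, since 3 of 9 single libraries and 9 of 9 repeat libraries reached the level that 4 libraries must reach.

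**Figure D1:**
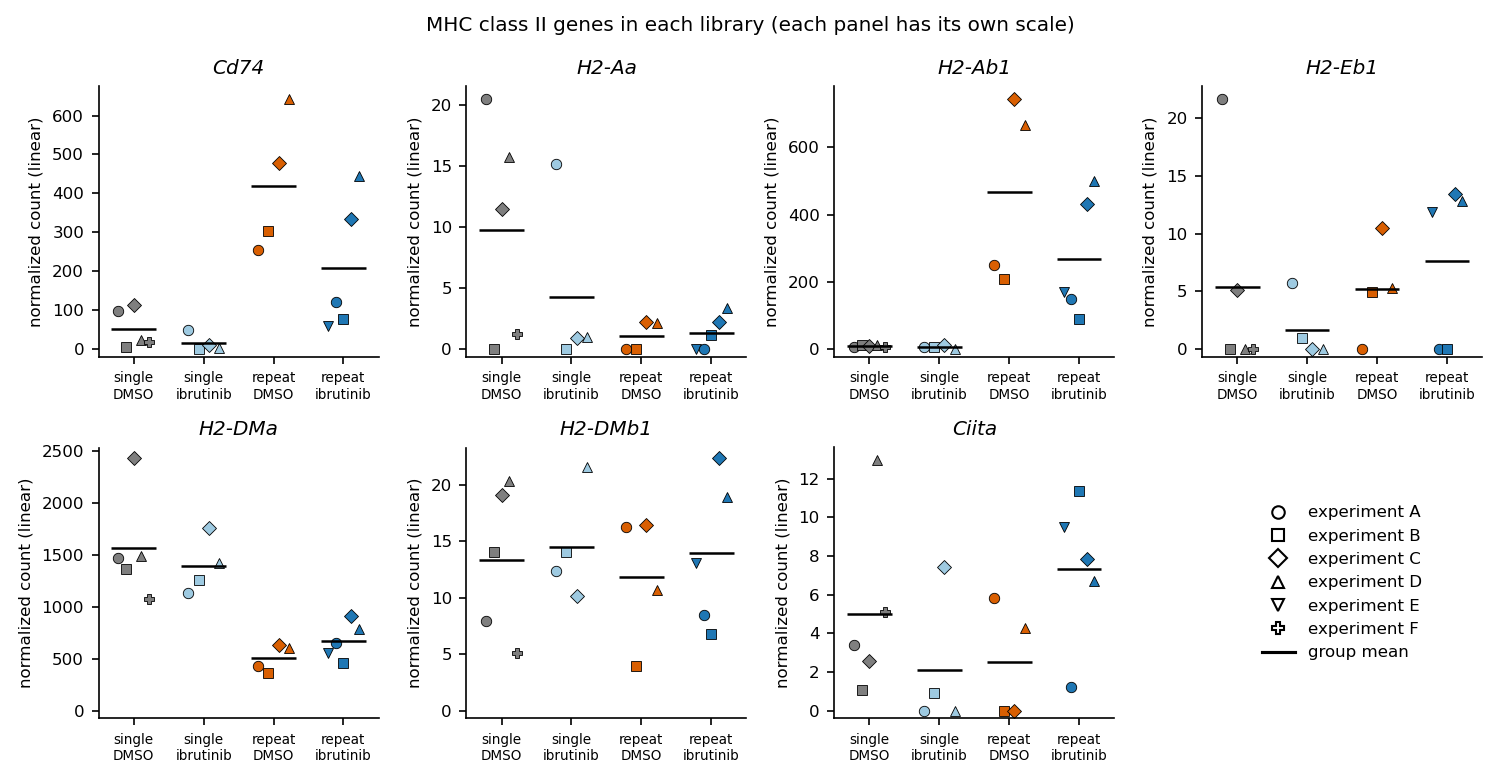
Normalized counts (linear axes, each panel with its own scale) of the 7 class II genes in the 18 libraries, by group. Points are libraries, their shapes the experiments, and lines the group means. Cd74 and H2-Ab1 stand higher in repeat cultures, H2-DMa stands lower, and H2-Aa, H2-Eb1, H2-DMb1 and Ciita stay under 25 normalized counts in each library.

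The partner chain of H2-Ab1 had few reads in repeat cultures. H2-Aa, whose product pairs with that of H2-Ab1, had 0, 0, 3 and 2 reads in repeat cultures with DMSO and 0, 1, 2, 6 and 0 with ibrutinib (A to D, and A to E). In single cultures it had 18, 0, 9, 17 and 1 reads with DMSO (A to D and F) and 16, 0, 1 and 1 with ibrutinib (A to D). Summed over the 9 repeat libraries, 14 H2-Aa reads stood against 3677 H2-Ab1 reads, a share of 0.379% (Clopper-Pearson 95% interval 0.208 to 0.636). Over the 9 single libraries, 63 H2-Aa reads stood against 73 H2-Ab1 reads, a share of 46.3% (37.7 to 55.1). The share was at most 1.27% in any repeat library, and in single libraries it ran from 0 to 78.3%. These intervals cover counting error only. H2-Ab1 was chosen as higher in repeat cultures, so a lower share there follows in part from the choice.

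Cd74 kept closer to H2-Ab1 in repeat cultures, where both genes had been chosen as higher. The ratio of H2-Ab1 to Cd74 in TPM, which takes account of length, ranged from 0.699 to 2.96 over the 9 repeat libraries, with a median of 1.23. In single libraries it ranged from 0.0582 to 5.4, with a median of 0.483.

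**Figure D2:**
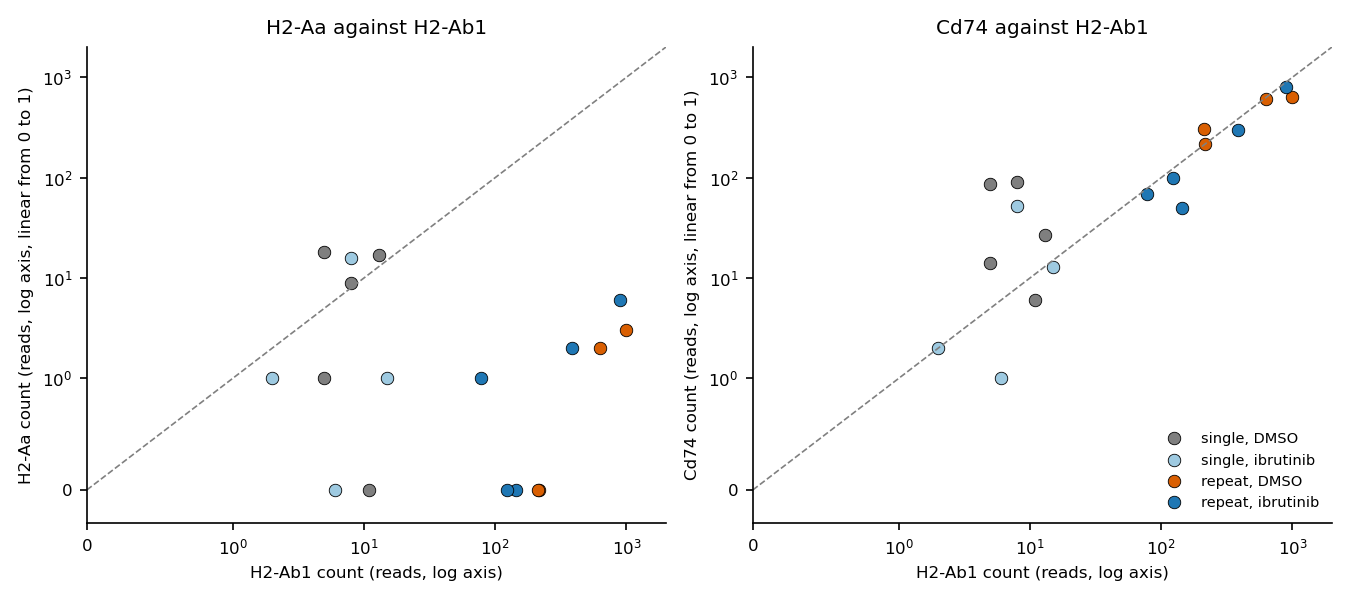
Reads of H2-Aa (left) and Cd74 (right) against reads of H2-Ab1 in the 18 libraries, colored by group, on log axes that are linear from 0 to 1 (the dashed line marks equal counts). In repeat libraries H2-Ab1 has 78 to 995 reads with at most 6 of H2-Aa, while Cd74 lies near the line.

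H2-Eb1 had few reads in all groups. In repeat cultures it had 0, 5, 14 and 5 reads with DMSO (A to D) and 0, 0, 12, 23 and 10 with ibrutinib (A to E). In single cultures it had 19, 0, 4, 0 and 0 reads with DMSO (A to D and F) and 6, 1, 0 and 0 with ibrutinib (A to D). The groups overlapped in both comparisons, and most single libraries stood at 0 or 1. The log2 fold change of repeat over single with DMSO was 0.03 (SE 1.2), and 2.11 without the single DMSO library of experiment A. With ibrutinib it was 2.15 (SE 1.39), and 4.19 without the single ibrutinib library of A. H2-Eb1 also passed the filter only through repeat libraries, with 4 of them and 1 single library at the level needed.

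H2-DMa, the alpha chain of the peptide exchange factor, was the member with the highest mean TPM over all libraries and moved the other way. It had 368, 364, 841 and 561 reads in repeat cultures with DMSO (A to D) and 1285, 1261, 1905, 1608 and 837 in single cultures with DMSO (A to D and F). With ibrutinib it had 538, 401, 814, 1414 and 464 reads in repeat (A to E) and 1194, 1342, 1897 and 1383 in single cultures (A to D). After scaling, each repeat library lay below each single library of the same treatment. The log2 fold change of repeat over single was -1.63 (SE 0.244) with DMSO and -1.05 (SE 0.232) with ibrutinib. H2-DMa overlaps Brd2 on the opposite strand, which had 7980 to 16958 reads per library. The libraries were made strand-specific, but the strand setting of the counting is not given in the sources used here, so reads of both genes may not be fully told apart.

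H2-DMb1, the beta chain that H2-DMa needs as a partner, had 4 to 34 reads in any library. Its normalized counts were 11.8 ± 5.91 (SD, n = 4) in repeat and 13.3 ± 6.7 (SD, n = 5) in single cultures with DMSO, and 13.95 ± 6.66 (SD, n = 5) and 14.5 ± 4.95 (SD, n = 4) with ibrutinib. The groups overlapped throughout. H2-DMb1 has a close copy, H2-DMb2, and reads that match both genes could be split between them. The expected counts of H2-DMb1, like those of H2-DMa and Ciita, were whole numbers in each library, while 2925 genes had fractional counts. Sharing of reads was not tested further.

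Ciita, the coactivator on which class II transcription depends, had at most 14 reads in any library and none in 4 of them. In repeat cultures it had 5, 0, 0 and 4 reads with DMSO (A to D) and 1, 10, 7, 12 and 8 with ibrutinib (A to E). In single cultures it had 3, 1, 2, 14 and 4 reads with DMSO (A to D and F) and 0, 1, 8 and 0 with ibrutinib (A to D). The groups overlapped, and libraries C of repeat and single cultures with DMSO had 0 and 2 Ciita reads beside 995 and 8 H2-Ab1 reads. Ciita overlaps Dexi on the opposite strand, which had 212 to 574 reads per library.

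Of the 7 members, 5 passed the filter on low counts, and H2-Aa and Ciita did not. A gene was called where edgeR's quasi-likelihood test gave a Benjamini-Hochberg adjusted p under 0.05 over 12255 genes, if its normalized counts averaged 50 or more and its log2 fold change exceeded 0.2 in size. In the comparison of repeat with single cultures with DMSO, 22.8% of tested genes were called higher and 24.2% lower. With ibrutinib, 18.7% were higher and 19.6% lower. No call is given for the members in either comparison, since they were chosen by a difference between repeat and single cultures.

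Per unit of length, H2-Ab1, Cd74 and H2-DMa were close to each other in repeat cultures with DMSO. Their TPM was 22.8 ± 13.4, 19.8 ± 7.78 and 17.9 ± 5.13 (SD, n = 4), with ranges that overlapped. H2-DMb1 followed at 0.5175, H2-Eb1 at 0.2575, H2-Aa at 0.06 and Ciita at 0.02 TPM. In single cultures with DMSO, H2-DMa stood first at 47.9 ± 13.8 TPM (SD, n = 5), apart from Cd74 at 2.26 ± 2.21. H2-DMb1, H2-Aa, H2-Ab1 and H2-Eb1 followed between 0.26 and 0.652 TPM with overlapping ranges, and Ciita was last at 0.036 TPM. Among genes with a mean TPM above 0, 71.6% stood below H2-Ab1 in repeat cultures with DMSO and 32.6% in single cultures. For comparison, 98.7% stood below Cd8a in the former.

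Whether ibrutinib moved class II transcripts was tested next. H2-Eb1 and H2-DMb1 stay below the mean of 50 normalized counts that a call needs, with at most 21.7 and 22.4 in any library, so Cd74, H2-Ab1 and H2-DMa were the 3 members that could be called. In repeat cultures 0 of these 3 were called, against 5.92% of all tested genes (4.01% higher and 1.92% lower), and none of the 5 tested members had an unadjusted p under 0.05. Cd74 stood at 207.5 ± 172.3 (SD, n = 5) normalized counts with ibrutinib and 419.5 ± 177.4 (SD, n = 4) with DMSO, a log2 fold change of -1.004 (SE 0.745, adjusted p = 0.46). H2-Ab1 stood at 268.6 ± 185.0 (SD, n = 5) and 467.9 ± 277.4 (SD, n = 4), a log2 fold change of -0.80 (SE 0.462, adjusted p = 0.333). The treated and untreated groups overlapped for both genes. H2-DMa stood at 672 ± 181.6 (SD, n = 5) and 504 ± 131 (SD, n = 4), a log2 fold change of 0.42 (SE 0.237, adjusted p = 0.323). The values of H2-Eb1 (0.53, SE 1.2) and H2-DMb1 (0.25, SE 0.513) did not pass either.

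The experiments pair the libraries, and within them the differences of Cd74, H2-Ab1 and H2-DMa each had 1 sign. H2-DMb1 was higher with ibrutinib in 3 experiments and lower in 1, and H2-Eb1 was higher in 2, lower in 1 and equal in 1. Cd74 was lower with ibrutinib in repeat cultures in 4 of 4 experiments, at 0.478, 0.254, 0.701 and 0.691 of its DMSO value in A to D. H2-Ab1 was lower in 4 of 4, at 0.594, 0.426, 0.581 and 0.75. Both genes were chosen for high values in repeat cultures, which could favor such falls. H2-DMa was higher in 4 of 4, at 1.52, 1.27, 1.45 and 1.32 times the DMSO value. With the experiment as a block, edgeR called H2-DMa higher with ibrutinib (log2 fold change 0.47, SE 0.118, adjusted p = 0.013), and Cd74 and H2-Ab1 were still not called.

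With single peptide, neither Cd74 nor H2-DMa was called with ibrutinib, against 3.04% of all tested genes. H2-Ab1, H2-Eb1 and H2-DMb1 had at most 22 reads in any single library, too few to read their missing calls as a result. Cd74 had a log2 fold change of -1.68 (SE 0.904, edgeR adjusted p = 0.45) and was lower in 4 of 4 experiments. Its counts in these libraries were 1 to 90, and in B and D the treated library had only 1 and 2 reads. H2-DMa had a log2 fold change of -0.17 (SE 0.232, adjusted p = 0.847), and it too was lower in 4 of 4 experiments, at 0.773, 0.922, 0.725 and 0.954 of its DMSO value. H2-Ab1 was higher in 2 and lower in 2 experiments, at 2 to 15 reads.

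The difference between the ibrutinib effects in repeat and single cultures (the interaction) was called for neither Cd74 nor H2-DMa, and for 1.26% of all tested genes. For H2-Ab1 it rests on 2 to 15 reads in single libraries, and H2-Eb1 and H2-DMb1 could not be called. It was 0.58 (SE 0.332, edgeR adjusted p = 0.553) for H2-DMa, 0.68 (SE 1.16, adjusted p = 0.911) for Cd74 and -0.46 (SE 0.873, adjusted p = 0.925) for H2-Ab1 on the log2 scale. With the experiment as a block, the interaction of H2-DMa was called (0.73, SE 0.163, adjusted p = 0.0145), and that of no other member.

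**Figure D3:**
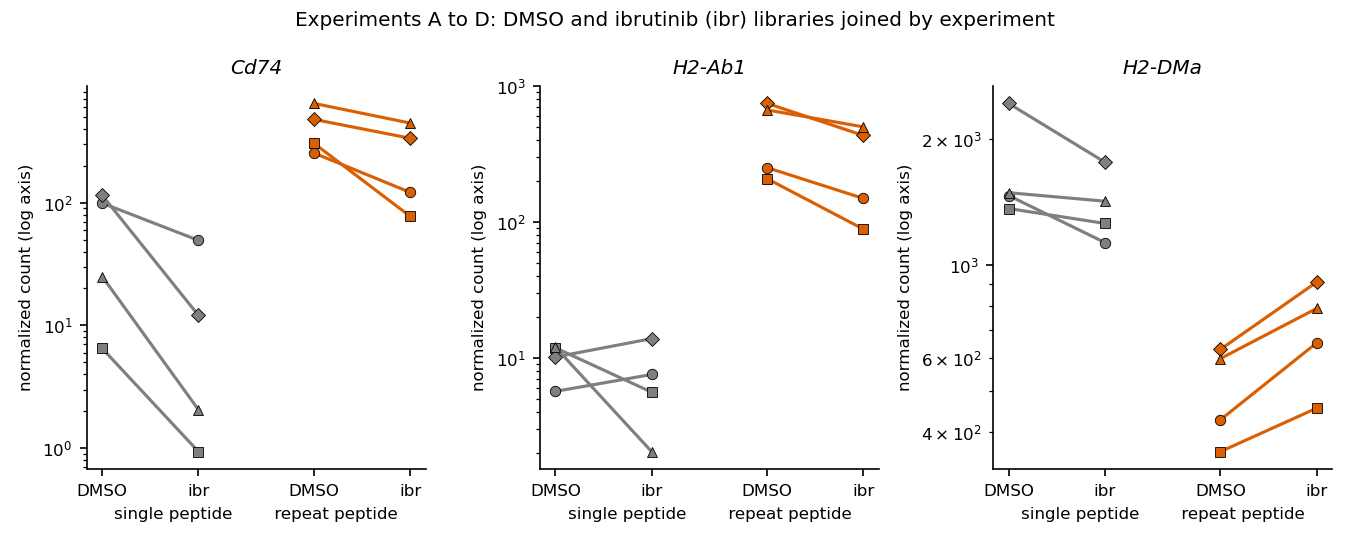
Normalized counts (log axes) of Cd74, H2-Ab1 and H2-DMa with DMSO and with ibrutinib (ibr), with lines joining libraries of experiments A to D (shapes as in the plot by group) in single (gray) and repeat (orange) cultures. In repeat cultures the 4 lines fall for Cd74 and H2-Ab1 and rise for H2-DMa. In single cultures the 4 lines of H2-DMa fall.

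Since class II transcripts in a T cell culture could come from other cells, markers of those cells were measured in the same libraries. Of 17 B cell genes, 9 had at most 10 reads in each of the 18 libraries. Cd79a, Ms4a1, Pax5 and Igkc, which mark B cells, had at most 7, 6, 5 and 7 reads in any library. Of the 6 tested B cell genes, Cd79b and Cd72 were lower in repeat than in single cultures with DMSO, against 24.2% of all tested genes. Their log2 fold changes were -1.56 (SE 0.375) and -1.06 (SE 0.203). They were the only tested genes of the list with enough counts for a call. Below that mean, Ebf1 stood at 62.8 ± 25.9 (SD, n = 4) normalized counts in repeat and 6.185 ± 10.1 (SD, n = 5) in single cultures with DMSO, a log2 fold change of 3.24 (SE 0.918, edgeR adjusted p = 0.00625). Cd22 had a log2 fold change of 2.53 (SE 0.951, adjusted p = 0.0316), Blk of -2.86 (SE 0.944, adjusted p = 0.016) and Bank1 of -0.96 (SE 0.424, adjusted p = 0.0639). Ighm was abundant in all libraries at 11100 to 30240 reads while Igkc was nearly absent, and its mean was 515 TPM in repeat and 435.9 TPM in single cultures with DMSO. Ighd had means of 14.8 and 5.99 TPM in these groups. Both belong to the immunoglobulin gene types and were outside the test. The summed TPM of the 17 genes, mostly Ighm, ranged from 468 to 649 in repeat and from 365 to 537 in single cultures with DMSO.

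Plasma cell genes were led by Sdc1, which encodes syndecan-1. It rose by 5.89 (SE 0.3805) on the log2 scale in repeat cultures with DMSO and was lower with ibrutinib in them (-1.65, SE 0.3035, edgeR adjusted p = 0.00272). Mzb1 and Tnfrsf17 had at most 6 and 11 reads in any library, and Jchain did not pass (0.37, SE 0.696). The summed TPM of the 5 genes ranged from 17.9 to 21.1 in repeat and from 1.15 to 7.41 in single cultures with DMSO.

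Most dendritic cell genes had few reads. Cd209a was at 0 in all libraries, Clec9a and Siglech had at most 1 read, Xcr1 at most 5, Clec10a at most 6 and Flt3 at most 13. Of the 8 genes, 2 were tested and 0 called. Zbtb46 had 26 to 145 reads in repeat and 3 to 23 in single cultures with DMSO, under the mean count that a call needs (log2 fold change 2.94, SE 0.57, edgeR adjusted p = 0.0003). Itgax, the most abundant of the list, had 3 to 291 reads. It stood at 27.3 ± 34.9 (SD, n = 4) normalized counts in repeat and 63.55 ± 59.9 (SD, n = 5) in single cultures with DMSO, and at 106.3 ± 132.7 (SD, n = 5) in repeat cultures with ibrutinib, and it was not called. The summed TPM of the list was 0.73 to 3.94 and 0.22 to 1.72 in these groups.

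Of 14 macrophage and monocyte genes, 9 had at most 10 reads in each library. C1qa was at 0 throughout, Csf1r, C1qb, C1qc and Fcgr1 had at most 3 reads and Adgre1 at most 7. Cd14 had 32 to 112 reads in repeat cultures with DMSO and at most 1 in single cultures, below the mean count for a call (log2 fold change 7.35, SE 0.7985, edgeR adjusted p = 6.46e-07). Cd68 was called higher in repeat than in single cultures with ibrutinib (2.46, SE 0.454). Lyz2, a lysozyme of macrophages and granulocytes, had 113 and 107 reads in the single libraries of experiment A with DMSO and ibrutinib and 54 in the repeat ibrutinib library of E, which also had 18 reads of S100a8 and of Ms4a2 and 12 of S100a9. Summed, the list ranged from 3.88 to 7.08 TPM in repeat and from 1.05 to 9.47 in single cultures with DMSO.

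Without these 3 libraries, which include high single and the lowest repeat values of Cd74, the log2 fold change of repeat over single was 3.38 for Cd74 and 5.50 for H2-Ab1 with DMSO, and 5.59 and 5.34 with ibrutinib. Among single libraries, those of experiment A had most reads of H2-Eb1 and, with the DMSO library of D, of H2-Aa. The part of other cells in the levels of the members was not tested further.

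Among CD4 T cell genes, Zbtb7b, which encodes the lineage factor ThPOK, rose in repeat cultures with DMSO (2.37, SE 0.233) and with ibrutinib (1.85, SE 0.24), while Cd4 had 0 to 2 reads. Foxp3 fell in both comparisons. Of the NK cell genes, Klrb1c rose in both, and Ncr1 and Tyrobp had at most 27 and 12 reads. Of the 6 granulocyte and mast cell genes, 0 were tested, and all had at most 21 reads in any library.

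**Figure D4:**
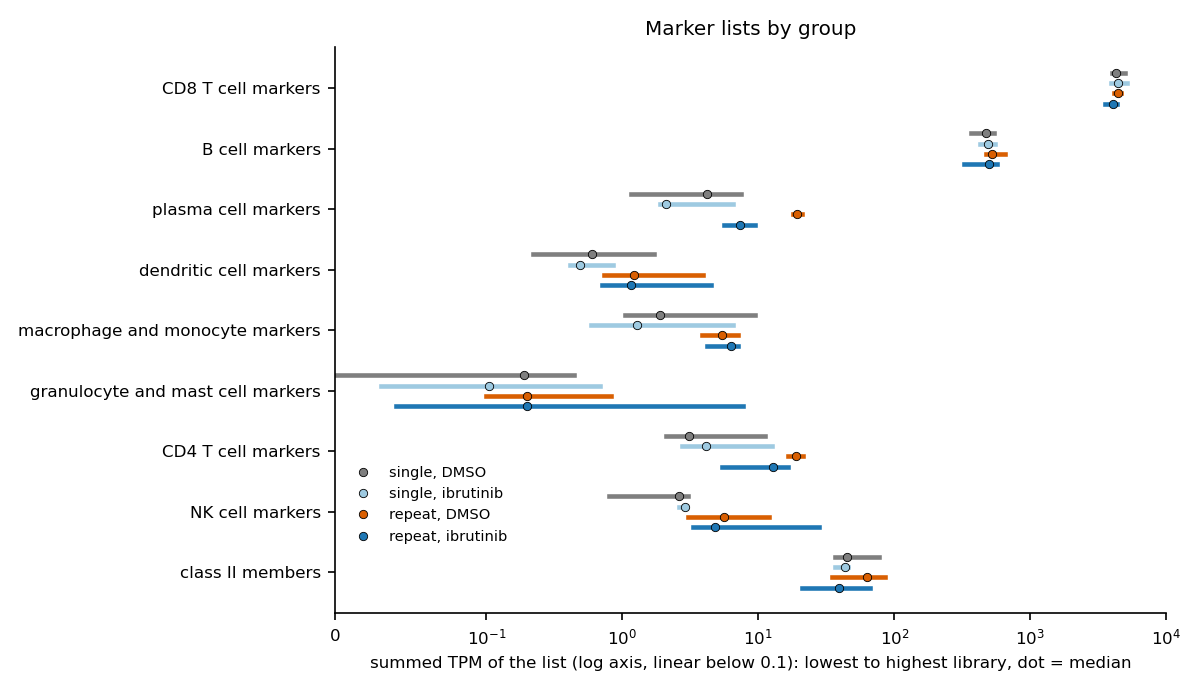
Summed TPM of marker lists and of the class II members in each group (log axis, linear below 0.1). Bars run from the lowest to the highest library and dots mark medians. Lists of dendritic, macrophage, granulocyte, CD4 T and NK cells lie below 30 TPM in each library, and B cell genes stand at 324 to 649 TPM, most of it Ighm.

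The remaining class II genes did not follow H2-Ab1. H2-Oa and H2-Ob, the chains of the H2-DM inhibitor, were lower in repeat than in single cultures with DMSO. H2-Ob stood at 18.9 ± 13.2 (SD, n = 4) against 237.9 ± 34.5 normalized counts (SD, n = 5), a log2 fold change of -3.64 (SE 0.45, edgeR adjusted p = 2.96e-06), and H2-Oa fell by 0.55 (SE 0.138, adjusted p = 0.002665). In repeat cultures both rose with ibrutinib. H2-Ob reached 57.75 ± 24.4 normalized counts (SD, n = 5), a log2 fold change of 1.60 (SE 0.436, adjusted p = 0.0342). H2-Oa rose from 329.5 ± 35.7 (SD, n = 4) to 525.6 ± 78.0 (SD, n = 5), a log2 fold change of 0.67 (SE 0.138, adjusted p = 0.00608). These comparisons share the repeat DMSO libraries. The mean count that a call needs is taken over all 18 libraries. H2-Ob averaged 160.7 there, with 237.9 and 334.9 in the single groups against 18.9 and 57.75 in the repeat groups. Its ibrutinib call in repeat cultures thus passed that limit with the help of single libraries, which are outside that comparison. With this limit, 2 of 3 tested genes of this group were called lower with repeat peptide, against 24.2% of all tested genes, and 2 of 3 higher with ibrutinib, against 4.01%. H2-DMb2 was not called in either (0.34, SE 0.488, and 0.31, SE 0.484). The pseudogene H2-Ea-ps was at 0 in all libraries and H2-Eb2 had at most 10 reads.

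Genes of the class II promoter complex moved in both directions with repeat peptide. Of 8 tested genes, Nfya and Nfyb were higher and Rfx5, Rfxap, Rfxank and Nlrc5 lower in repeat than in single cultures with DMSO, against 22.8% and 24.2% of all tested genes. The rises of the NF-Y subunits were 0.29 (SE 0.1185) and 0.59 (SE 0.101) on the log2 scale. The RFX subunits fell by 0.57 (SE 0.137), 0.55 (SE 0.163) and 0.53 (SE 0.1355), and Nlrc5, the relative of Ciita that acts on class I genes, fell by 0.91 (SE 0.184). Nfyc (-0.12, SE 0.106) and Creb1 (0.20, SE 0.1485) were not called. With ibrutinib in both arms, Nfyb was higher and Rfxap and Rfxank lower, and with the experiment as a block 3 were higher and 2 lower. Ibrutinib against DMSO in repeat cultures gave 0 calls of 8 (median log2 fold change -0.009, against 0.004 over all tested genes). With the experiment as a block, Nlrc5 was called higher (0.44, SE 0.107, adjusted p = 0.0106).

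Interferon gamma, encoded by Ifng, is the best known inducer of Ciita and acts through its receptor, JAK kinases and the transcription factors downstream of them, IRF1 among them. In repeat against single cultures with DMSO, Ifng itself rose and the other 8 of 9 tested genes of this route fell, against 24.2% of all tested genes called lower. Ifng stood at 756.3 ± 342.0 (SD, n = 4) against 46.1 ± 31.6 normalized counts (SD, n = 5), a log2 fold change of 4.04 (SE 0.546, edgeR adjusted p = 7.935e-06). Ifngr2, a chain of the receptor, fell by 2.46 (SE 0.2715), from 315.9 ± 64.8 (SD, n = 5) to 57.5 ± 7.41 normalized counts (SD, n = 4). Irf1 fell by 1.54 (SE 0.168) and Socs1, an inhibitor of the route, by 1.02 (SE 0.232). The median log2 fold change of the 9 genes was -0.97, against -0.002 over all tested genes. With ibrutinib in both arms, Ifng was higher (4.77, SE 0.671) and Ifngr2 and Jak1 were lower.

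Ifng was called lower with ibrutinib in repeat cultures and, at few reads, in single cultures. Ifng averaged 243.5 normalized counts over all 18 libraries, with 46.1 (DMSO) and 7.99 (ibrutinib) in the single groups. Its call in single cultures thus passed the limit on the mean count with the help of repeat libraries, which are outside that comparison. Irf1 rose with ibrutinib in repeat cultures and fell in single cultures. In repeat cultures Ifng fell by 1.78 (SE 0.492, edgeR adjusted p = 0.036), while Ifngr2 rose by 1.15 (SE 0.2635, adjusted p = 0.01265) and Irf1 by 0.77 (SE 0.164, adjusted p = 0.00799). With the experiment as a block, Ifngr1, Jak1 and Jak2 were also called higher. Where peptide had been given once, Ifng fell by 2.51 (SE 0.677, adjusted p = 0.0494) and Irf1 by 0.70 (SE 0.163, adjusted p = 0.0236). The interaction was called for Irf1 (1.47, SE 0.2315, adjusted p = 0.00213), and with the block also for Ifngr2 and Socs1.

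The list of antigen processing, surface turnover and costimulation genes held 10 tested genes. Of these, 5 were higher in repeat than in single cultures with DMSO and 1 was lower, against 22.8% and 24.2% of all tested genes. Cd83, which holds class II at the surface by opposing MARCH1, rose by 4.78 (SE 0.598), and March8, a ligase that removes class II from the surface, by 3.33 (SE 0.211). Cd80, a costimulatory ligand, rose by 4.01 (SE 0.253), from 104.3 ± 37.1 (SD, n = 5) to 1690 ± 364.8 normalized counts (SD, n = 4). Ifi30, a thiol reductase of endosomes, rose by 1.41 (SE 0.216) and the protease gene Ctsb by 0.24 (SE 0.0986). Ctss, the protease that trims the invariant chain, fell by 0.99 (SE 0.141). With ibrutinib in both arms, Ifi30, March8, Cd83, Cd80 and Cd86 were higher and Ctss and Ctsl lower. With ibrutinib, Cd83 (-1.73, SE 0.508, edgeR adjusted p = 0.048) and Cd80 (-1.10, SE 0.227, adjusted p = 0.00637) fell in repeat cultures. With the experiment as a block Ctss was called higher there (0.30, SE 0.0892, adjusted p = 0.0311).

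**Figure D5:**
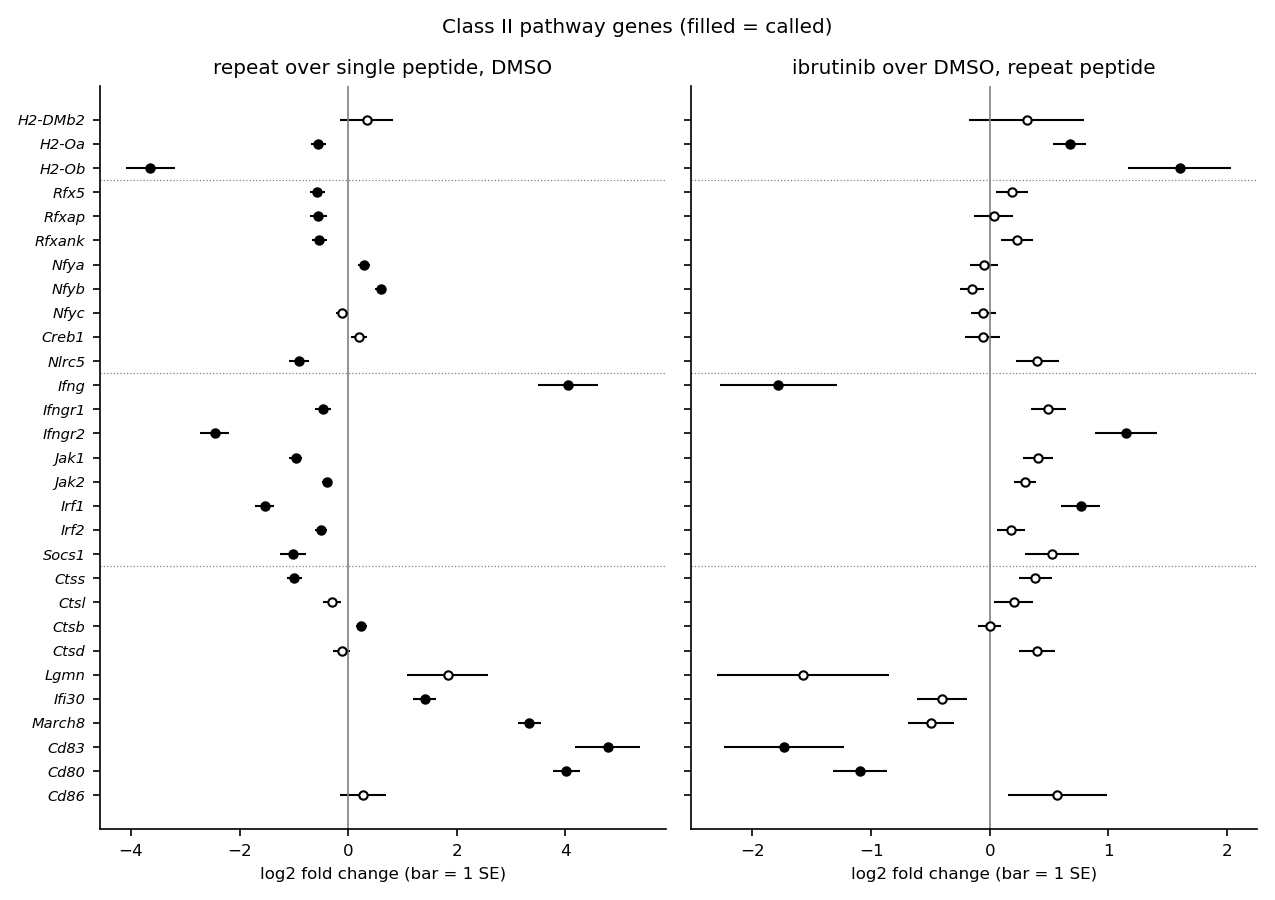
Log2 fold changes with 1 SE on either side for tested genes of the class II pathway, repeat against single cultures with DMSO (left) and ibrutinib against DMSO in repeat cultures (right). Filled points are called genes. Cd83, Ifng and Cd80 lie above 4 on the left and below 0 on the right.

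The genes whose levels ran most like those of H2-DMa over the 18 libraries were Nub1 (Pearson's r 0.944 of log2 CPM, counts scaled for library size), Ass1 (0.938), Thumpd1 (0.927) and the lymph node homing receptor gene Ccr7 (0.927), followed by Amigo2, Igfbp4, Lair1, Aatf and Suclg2 (0.91 to 0.925). H2-DMb1 had an r of 0.381 with H2-DMa, and H2-Ab1 of -0.761. After removal of the group means, Ncs1 (0.937), Hspa9 (0.936) and Cd81 (0.927) came first, followed by Pgam1, Lif, Gspt1, Caprin1, Eno1 and Grhpr (0.911 to 0.92). These values are a description over libraries that share groups and experiments.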

How the data were processed

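Splenic OT-I CD8+ T cells were sequenced in 18 libraries of 4 groups. The authors aligned reads with STAR and estimated counts with RSEM in an nf-core pipeline, and per the submitters' notes used RSEM 1.3.1, SAMtools 1.10 and GRCm38. The deposited files hold expected counts per gene and TPM, which the authors computed with RSEM. The 7 members and all gene lists were chosen with earlier results of these data known.

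Expected counts were rounded, and 45143 of 45706 identifiers matched GENCODE M21. Protein-coding and lncRNA genes (27903) were filtered by filterByExpr, which kept 12255, scaled by TMM and tested in 1 quasi-likelihood fit over the 4 groups with edgeR 4.0.16 (R 4.3.3). A gene had to reach 0.365 CPM in at least 4 libraries. For normalized counts, each library was brought to the mean effective size, 29285633. TPM was used to compare genes and to give levels of marker lists, and no test used it. By rule, the text names the members, the called genes and up to 4 highest genes of each list, and the 10 genes most like H2-DMa on either scale. Other marker genes were named after their values were seen, and uncalled genes of high level are covered by the counts. Some genes of the lists and of the likeness ranking are not reported here. The fit was checked on simulated counts. No 2 libraries of a group agreed within sampling noise.

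Libraries of the same experiment deviated together from their group means (24 of 24 pairs had a correlation above 0.1, median 0.325), so the experiment, read from the labels, was accepted as a pairing. Alternatives were DESeq2 1.42.0, its size factors, no filter, all gene types, no minimum mean count, ratios of mean TPM, a fit of only the groups compared, the block, and each library left out. Leaving out libraries with over 50 Lyz2 counts was added after seeing the data.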

Additional observations from a re-analysis of the deposited data

Results flagged for a closer look

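In 28 groups of normalized counts checked for 1 library far from the rest, 4 stood out. The rule flags about 1 in 20 groups of normally distributed values. In the flagged groups most libraries had few or no reads, so their number cannot be set against that rate. The flagged values were H2-Aa in single peptide stimulated cells with ibrutinib, experiment A (15.2 normalized counts), H2-Eb1 in single peptide stimulated cells of experiment A with DMSO (21.7) and with ibrutinib (5.69), and Ciita in single peptide stimulated cells with ibrutinib, experiment C (7.42). The single libraries of experiment A with DMSO and ibrutinib also held 113 and 107 Lyz2 reads, and the part of other cells in these values was not tested.

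H2-DMa was higher with ibrutinib in repeat peptide stimulated cells and lower in single peptide stimulated cells in each of experiments A to D. The difference between the effects was 0.58 on the log2 scale (edgeR adjusted p = 0.553), and 0.73 with the experiment as a block (adjusted p = 0.0145).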

How the results depend on the processing

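With the experiment as a replicate block, 1 member (H2-DMa) was called for ibrutinib in repeat peptide stimulated cells and 1 for the interaction, against 0 without the block. The 9 listed genes called for ibrutinib in repeat peptide stimulated cells became 17 with the block, 14 with DESeq2 and 5 with only the groups compared. Leaving out 1 library gave 4 to 12, with 4 without library C and 5 without library D of repeat peptide stimulated cells with DMSO.

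Over all genes, the 726 called for ibrutinib in repeat peptide stimulated cells became 1694 with the block, 1152 with DESeq2, 464 with only the groups compared, and 393, 354 and 478 without DMSO libraries C and D and ibrutinib library A. The 373 called in single peptide stimulated cells became 1114, 616 and 181 in the same order, and 198, 239, 131, 205 and 152 without DMSO libraries C and D and ibrutinib libraries A, B and D. The 154 of the interaction became 679 with the block, 350 with DESeq2, and 84 and 89 without repeat DMSO library C and single ibrutinib library D. Without the 3 libraries with over 50 Lyz2 reads, the last 2 counts were 130 and 68.

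Low counts limit H2-Aa, H2-Eb1, H2-DMb1 and Ciita: the repeat over single value of H2-Eb1 without those 3 libraries was 2.11 with DMSO and 4.02 with ibrutinib.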
